A study of Mus musculus with 4 samples.

Results

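Developing retinal neurons acquire a transmitter before they form synapses, and the genes that make or load it are among the first signs of which neuron a cell will become. Described here are 10 such genes in E13.5 mouse retinas: 4 that make or load a classical small transmitter (*Slc17a6*, *Gad1*, *Gad2* and *Chat*), the catecholamine enzyme gene *Th*, and the neuropeptide precursor genes *Adcyap1*, *Gal*, *Tac1*, *Npy* and *Cartpt*. They were chosen by name, and all 10 have a row among the 24062 genes counted. Of these, 7 had enough reads to test, and *Npy*, *Gad1* and *Chat* were too low to measure.

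The libraries were made from total RNA of E13.5 retinas (embryonic day), on a mixed C57BL/6 and 129 background. There were 2 libraries labelled wild type and 2 labelled Nrf1-CKO. According to the study, Nrf1-CKO retinas were *Nrf1* f/f;Six3-Cre, in which the Six3-Cre transgene recombines the floxed *Nrf1* alleles in retinal progenitor cells. The paper states that Cre expression starts in the central retina and that Nrf1 protein was lost there. Peripheral cells may therefore keep the gene. Each library held the pooled retinas of several embryos, and the wildtype retinas are not described as carrying the Cre transgene or the floxed alleles. The question was which retinal genes depend on *Nrf1*, a transcription factor of mitochondrial biogenesis.

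The 4 libraries had 74577660 to 85933945 reads counted on genes. Reads of *Nrf1* itself were as frequent in Nrf1-CKO as in wildtype (102 ± 2.35 and 104 ± 1.17 CPM, read counts scaled to a common library size, SD, n = 2), and a count over the whole gene does not check the loss of a single exon. The summed level of 10 retinal progenitor markers was 5950 and 6485 CPM in wildtype and 4289 and 4570 CPM in Nrf1-CKO. All 4 libraries thus carried the genes of their labelled tissue, at a lower summed level in Nrf1-CKO. By the limits given below, *Ccnd1*, *Fgf15* and *Hes5* were called lower and the other 7 markers were not called. Markers of neighbouring tissues differed with genotype as well. The summed level of 9 lens markers was 154 and 423 CPM in wildtype and 8878 and 3627 CPM in Nrf1-CKO. That of 7 macrophage and microglia markers was 68.8 and 63.3 against 202 and 241 CPM, and that of 6 pigment epithelium markers 205 and 144 against 374 and 395 CPM. The 8 markers of retinal ganglion cells (RGCs) went the other way, from 1227 and 1421 CPM to 505 and 391 CPM. In pooled tissue, fewer cells of a type and less RNA per cell cannot be told apart.

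A neuron's transmitter is set by few genes. Vesicular transporters load glutamate, as *Slc17a6* does, and glutamate decarboxylases, encoded by *Gad1* and *Gad2*, make GABA from it. Choline acetyltransferase, from *Chat*, makes acetylcholine, and tyrosine hydroxylase, from *Th*, carries out the rate-limiting step towards dopamine. Neuropeptides are cut from longer precursors inside dense-core granules and released beside the small transmitter. In the mature retina, RGCs are glutamatergic, most amacrine cells use GABA or glycine, starburst amacrine cells contain acetylcholine, and a sparse amacrine type contains dopamine.

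Promoter sequence is shown for the 3 tested genes of the 10 in which the letters of the cAMP response element were found in part or whole, because this element is a classical feature of neuropeptide and catecholamine genes and because 1 of the 3 went against the others in these retinas. The 250 bases before the RefSeq start (GRCm38.p6) are printed 5′ to 3′ on the gene's strand, with TGACGTCA, or its first 6 bases TGACGT where only these are present, and the core of the NRF1 motif, TGCGCA, in capitals. For *Th* they are chr7:142899996-142900245 (minus strand), for *Cartpt* chr13:99900684-99900933 (minus strand), and for *Adcyap1* chr17:93198767-93199016 (plus strand, the more upstream of 2 starts).
Th: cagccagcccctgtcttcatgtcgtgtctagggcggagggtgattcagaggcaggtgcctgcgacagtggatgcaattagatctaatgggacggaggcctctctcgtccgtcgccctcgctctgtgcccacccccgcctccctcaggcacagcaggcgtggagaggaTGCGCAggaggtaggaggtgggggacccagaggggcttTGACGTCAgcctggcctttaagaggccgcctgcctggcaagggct
Cartpt: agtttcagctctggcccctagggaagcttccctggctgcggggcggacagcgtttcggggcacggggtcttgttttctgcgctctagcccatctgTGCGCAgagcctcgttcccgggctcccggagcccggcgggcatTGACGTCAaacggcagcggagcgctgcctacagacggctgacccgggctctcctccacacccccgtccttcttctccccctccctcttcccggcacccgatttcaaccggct
Adcyap1: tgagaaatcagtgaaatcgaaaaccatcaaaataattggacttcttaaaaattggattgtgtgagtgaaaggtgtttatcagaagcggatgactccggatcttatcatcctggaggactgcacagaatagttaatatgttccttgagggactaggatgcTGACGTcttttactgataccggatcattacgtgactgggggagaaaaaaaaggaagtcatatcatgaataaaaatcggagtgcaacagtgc

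*Th* and *Cartpt* both held the whole 8-base element, beginning at -45 and -112 from the start, and both held TGCGCA, at -83 and -155. Of all 32851 promoter windows of this length, 1.55% held TGACGTCA on either strand and 6.43% held TGCGCA, and among windows of tested genes these shares were 2.52% and 10.3%. Both motifs read the same on either strand. *Adcyap1* had TGACGT only, at -91, a match that 6.47% of all windows held on either strand, and *Chat*, too low to test and not printed, had one at -172. The longer NRF1 motif GCGCATGCGC, present in 0.782% of all windows, was in none of the windows of the 10 genes. These matches describe letters, and no binding was measured.

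In the read counts, *Slc17a6* and *Th* fell most of the 7 tested genes, by more than 4-fold. *Gal*, *Adcyap1* and *Tac1* fell by between 2.11-fold and 2.54-fold, *Gad2* was not called, and *Cartpt* rose. The test was the quasi-likelihood test of edgeR over 15762 genes, and calls needed a 1.4-fold difference with an adjusted p no higher than 0.2, the limits in the study's methods. Of the 7 tested genes, 5 were called lower and 1 higher, whereas 8.04% of all tested genes were called lower and 12.8% higher. In this fit of all 4 libraries, each of these 6 calls held at the stricter adjusted p of 0.05. *Tac1* was the least firm of the 6, with adjusted p = 0.170 from glmTreat, the edgeR test against a 1.4-fold difference. Both Nrf1-CKO libraries lay below both wildtype libraries for 6 of the 7 genes, *Gad2* included, as they did for 31.6% of all tested genes.

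**Figure D1:**
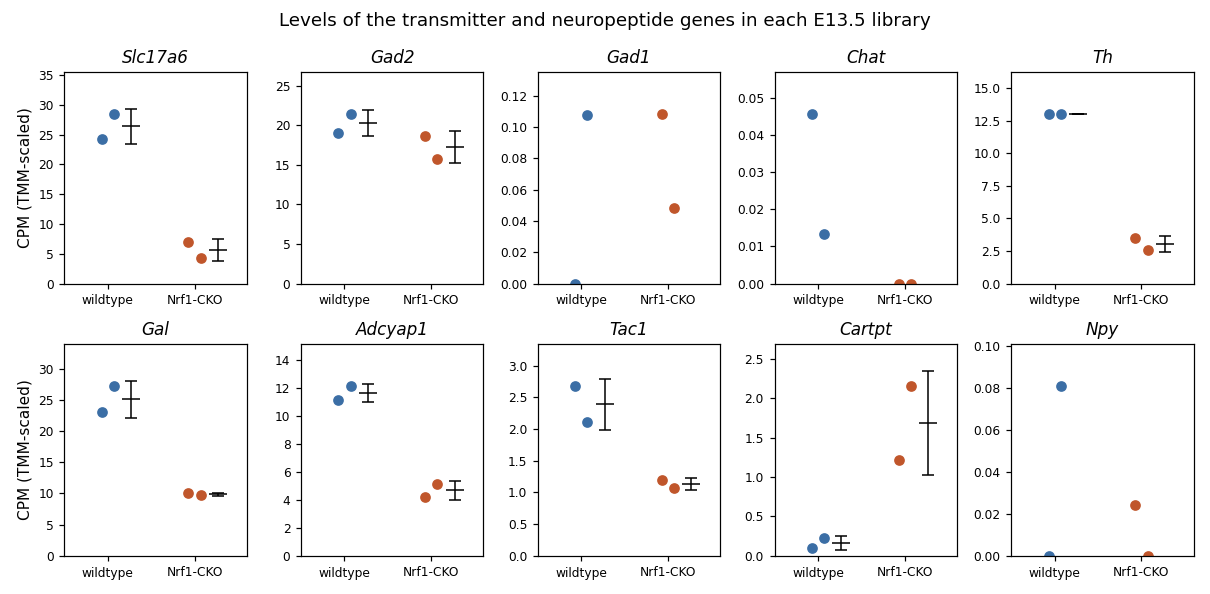
Level of each of the 10 genes in CPM (linear axis from 0, its own scale in each panel), with 1 point per library and, for the 7 tested genes, the mean ± SD of 2 libraries as a bar beside them. *Slc17a6*, *Th*, *Gal*, *Adcyap1* and *Tac1* are lower in both Nrf1-CKO libraries, *Cartpt* is higher, and *Gad1*, *Chat* and *Npy* stay at or below 0.108 CPM.

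*Slc17a6*, which encodes the vesicular glutamate transporter of RGCs, lies on chromosome 7 of GRCm38 from 51622006 to 51671119. Wildtype retinas gave 2129 and 2109 reads and Nrf1-CKO retinas 582 and 358, or 24.3 and 28.4 against 7.01 and 4.33 CPM. Both Nrf1-CKO libraries were far below both wildtype libraries, and the second was the lower. The mean was 21.5% of wildtype, a log2 fold change of -2.22 (standard error, SE, 0.21, edgeR adjusted p = 0.000211). This was the 94th lowest value among the 15762 tested genes. Leaving out single libraries moved it between -2.61 and -1.91.

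*Gad2*, the glutamate decarboxylase gene on chromosome 2 from 22622205 to 22693874, behaved otherwise. Its reads were 1671 and 1587 in wildtype and 1549 and 1307 in Nrf1-CKO, or 19.1 and 21.4 against 18.6 and 15.8 CPM. The higher Nrf1-CKO library lay just under the lower wildtype library. The mean was 85.1% of wildtype and the log2 fold change -0.23 (SE 0.12, 95% interval -0.51 to 0.05, edgeR adjusted p = 0.221), which was not called. The interval holds no change as well as a 1.4-fold decrease.

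The balance of the glutamate and the GABA gene, taken within each library, therefore differed between genotypes. Per read of *Gad2*, wildtype retinas had 1.27 and 1.33 reads of *Slc17a6* and Nrf1-CKO retinas 0.376 and 0.274. This ratio does not depend on scaling for library size. The other decarboxylase gene, *Gad1*, on the same chromosome from 70553072 to 70602014, had 0 and 8 reads in wildtype and 9 and 4 in Nrf1-CKO. Its summed reads per genotype were 8 and 13, with exact 95% Poisson intervals of 3.45 to 15.8 and 6.92 to 22.2 reads (counting error only). These overlap, and no difference was detectable at this depth. In these counts, transcripts of a GABA-making enzyme came almost wholly from *Gad2*. The exons of *Gad1* share no bases with those of another gene in GENCODE, while the annotation used for counting is not given.

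*Chat*, on chromosome 14 from 32408203 to 32465989, had 4 and 1 reads in wildtype and none in Nrf1-CKO. The 5 summed wildtype reads correspond to 0.0309 CPM (exact 95% Poisson interval 0.0100 to 0.0721), and the same interval for 0 reads over both Nrf1-CKO libraries reaches 0.0222 CPM. Summed over the group, 3 reads correspond to 0.0181 CPM there. Reads of *Chat* were thus at or near the limit of detection in both genotypes, and no fold is given.

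*Th*, on chromosome 7 from 142892752 to 142931128, was read 1138 and 965 times in wildtype, which is 13.0 CPM in each library. In the Nrf1-CKO libraries it had 290 and 214 reads, or 3.49 and 2.59 CPM. The wildtype libraries were nearly equal and the genotypes stood well apart. The mean was 23.4% of wildtype, with a log2 fold change of -2.10 (SE 0.18, edgeR adjusted p = 0.000144). *Th* fell about as much as *Slc17a6*, and the reads of *Slc17a6* per read of *Th* were 1.87 and 2.19 in wildtype and 2.01 and 1.67 in Nrf1-CKO, which overlap.

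*Gal*, the precursor gene of galanin, lies on chromosome 19 from 3409915 to 3414544. It had 2015 and 2014 reads in wildtype and 836 and 803 in Nrf1-CKO, or 23.0 and 27.2 against 10.1 and 9.71 CPM. The Nrf1-CKO libraries agreed closely with each other and were below both wildtype libraries. The level was 39.4% of wildtype, a log2 fold change of -1.34 (SE 0.12, edgeR adjusted p = 0.000191).

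*Adcyap1* encodes the precursor of PACAP, a peptide that signals through cyclic AMP, and lies on chromosome 17 from 93199017 to 93206537. Its reads were 975 and 896 in wildtype and 349 and 424 in Nrf1-CKO, or 11.1 and 12.1 against 4.20 and 5.12 CPM. The order of the Nrf1-CKO libraries was the reverse of that for *Slc17a6*, *Th*, *Gal* and *Tac1*, with the second library higher. The level was 40.2% of wildtype (log2 fold change -1.32, SE 0.16, edgeR adjusted p = 0.000577).

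*Tac1*, on chromosome 6 from 7554879 to 7565834, encodes the precursor of substance P and neurokinin A. It had 234 and 156 reads in wildtype and 100 and 88 in Nrf1-CKO, or 2.67 and 2.10 against 1.20 and 1.06 CPM. The genotypes did not overlap, and the wildtype libraries lay further apart than the Nrf1-CKO libraries. The log2 fold change was -1.07 (SE 0.31, edgeR adjusted p = 0.0364). On the authors' normalized log2 values the difference was -0.35. On that scale a library with 0 reads of *Npy* or *Chat* stands at 8.13. Differences are smaller there, most of all for genes with few reads, and are not comparable with a fold from the counts. Genes with more reads also had smaller differences, with *Slc17a6* at -1.52 and *Th* at -1.18.

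*Npy*, the neuropeptide Y gene on chromosome 6 from 49822710 to 49829507, had 0 and 6 reads in wildtype and 2 and 0 in Nrf1-CKO. Both genotypes had a library without a single read, and their intervals overlapped (2.20 to 13.1 and 0.242 to 7.22 summed reads, exact 95% Poisson). No difference was detectable at this depth.

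*Cartpt*, the precursor gene of the CART peptides on chromosome 13 from 99898489 to 99901091, was the only one of the 10 that was called higher. It had 9 and 17 reads in wildtype and 101 and 178 in Nrf1-CKO, or 0.103 and 0.229 against 1.22 and 2.15 CPM. The lower Nrf1-CKO library was several times above the higher wildtype library, and the libraries of a genotype differed by about 2-fold. The log2 fold change was 3.35 (SE 0.57, edgeR adjusted p = 0.00312), a 10.2-fold difference from a very low start. Only 0.74% of tested genes had a higher value. Without wildtype replicate 2 the log2 fold change was 4.02, and without wildtype replicate 1 it was 2.87. On the authors' normalized log2 values, with the offset described for *Tac1*, the difference was 0.67 and is not a comparable fold.

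The second Nrf1-CKO library had more *Cartpt* than the first. Of the neighbouring tissues, the summed lens markers had the reverse order in these libraries (8878 and 3627 CPM), whereas macrophage and microglia markers (202 and 241 CPM) and pigment epithelium markers (374 and 395 CPM) had the same order. All 9 lens markers and all 7 macrophage and microglia markers were called higher, as were 4 of the 5 tested pigment epithelium markers, with *Rpe65* at 0 in 3 libraries. Periocular mesenchyme markers were at 225 and 161 CPM in wildtype and 334 and 294 CPM in Nrf1-CKO, with 5 of 6 called higher, and endothelial markers at 248 and 255 against 247 and 236 CPM, with 3 of 5 called higher and 1 lower. Of the 3 tested erythroid markers, 1 was called higher (summed level 480 and 565 against 621 and 627 CPM, with *Hbb-bt* and *Hba-a1* at 0 in every library). The part of these tissues in the *Cartpt* value was not tested.

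**Figure D2:**
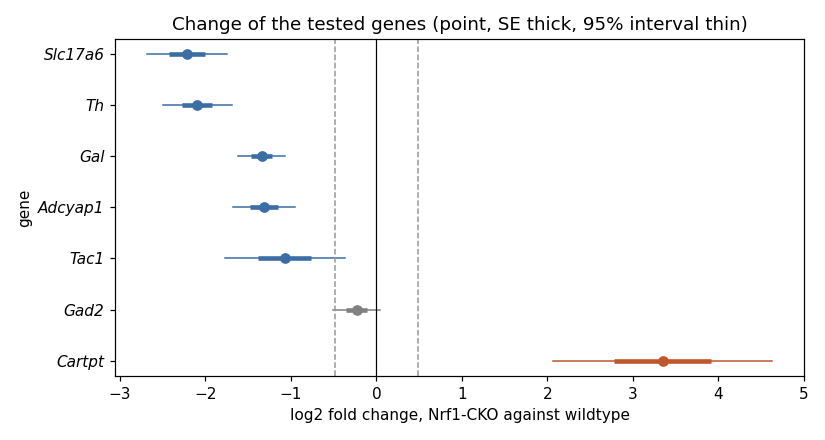
Log2 fold change of the 7 tested genes in Nrf1-CKO against wildtype retinas, with the standard error as a thick and the 95% interval as a thin line. The dashed lines mark a 1.4-fold change; *Gad2* at -0.23 lies between them, 5 genes lie to the left and *Cartpt* at 3.35 lies to the right.

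Per kilobase of exon, *Gal* was the highest of the 10 genes in wildtype, at 31.8 ± 3.72 CPM per kb (SD, n = 2). It was followed by *Th* (5.50 ± 0.00483), *Slc17a6* (4.88 ± 0.540), *Gad2* (3.44 ± 0.279), *Adcyap1* (3.07 ± 0.177), *Tac1* (0.702 ± 0.118) and *Cartpt* (0.130 ± 0.0700). The libraries of neighbours in this order did not overlap down to *Cartpt*, while *Cartpt* and *Npy* did. In Nrf1-CKO, *Gal* remained first at 12.5 ± 0.321 CPM per kb and *Gad2* was second at 2.93 ± 0.343. *Cartpt* (1.32 ± 0.518), *Th* (1.29 ± 0.270), *Adcyap1* (1.23 ± 0.173) and *Slc17a6* (1.05 ± 0.351) followed with overlapping libraries, so that these 4 did not differ beyond their spread. The lengths are those of all exons of a gene in GENCODE.

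Together the 10 genes had 93.3 and 105 CPM in wildtype and 46.0 and 40.8 CPM in Nrf1-CKO. Within that sum, *Gad2* held 20.4% and 20.5% of the reads in wildtype and 40.6% and 38.7% in Nrf1-CKO. The share of *Slc17a6* was 26.0% and 27.2% in wildtype and 15.2% and 10.6% in Nrf1-CKO. The share of *Gal* differed little, with 24.6% and 26.0% against 21.9% and 23.8%.

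**Figure D3:**
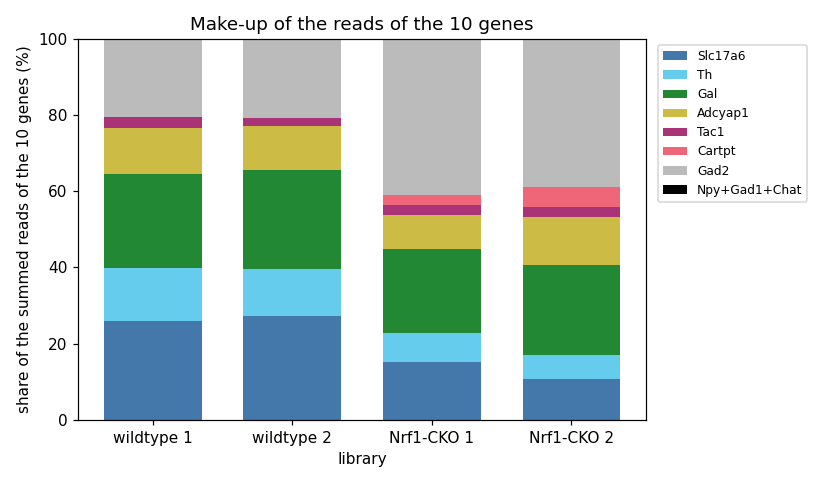
Share of each gene in the summed reads of the 10 genes (percent, not corrected for gene length), with 1 bar per library. The share of *Gad2* is 20.4% and 20.5% in wildtype and 40.6% and 38.7% in Nrf1-CKO, while that of *Slc17a6* is lower in both Nrf1-CKO libraries.

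These decreases can be set beside RGC and amacrine markers in the same libraries. Of the 8 RGC markers, 7 were called lower, with a median log2 fold change of -1.53 over the list. *Pou4f2*, an early RGC transcription factor gene, was at -0.97, *Isl1* at -1.37 and *Sncg*, a synuclein gene of RGCs, at -2.44. *Adcyap1* and *Gal*, at -1.32 and -1.34, were close to *Isl1*, and *Slc17a6* was between *Isl1* and *Sncg*. Per read of *Pou4f2*, *Slc17a6* had 0.143 and 0.165 reads in wildtype and 0.0737 and 0.0541 in Nrf1-CKO. For *Adcyap1* the same ratio was 0.0657 and 0.0699 against 0.0442 and 0.0640, and for *Gal* 0.136 and 0.157 against 0.106 and 0.121. In each case both Nrf1-CKO libraries were below both wildtype libraries, but for *Adcyap1* and *Gal* by little. The part of RGC number in these values was not tested.

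The amacrine and horizontal cell markers did not move together. *Ptf1a*, which specifies both cell types, fell with a log2 fold change of -2.35 (541 and 516 reads in wildtype, 152 and 61 in Nrf1-CKO), and *Onecut1*, *Onecut2* and *Lhx1* were also called lower. *Prox1* and *Tfap2a* were called higher, and *Tfap2b* was at -0.01 (adjusted p = 0.981 from edgeR). Lens markers rose in the same libraries, and the part of neighbouring tissues in the *Prox1* and *Tfap2a* values was not tested. The reads of *Gad2* per read of *Tfap2b* overlapped between genotypes, with 0.927 and 1.27 in wildtype and 0.868 and 1.00 in Nrf1-CKO. Per read of *Ptf1a* they did not, with 3.09 and 3.08 in wildtype and 10.2 and 21.4 in Nrf1-CKO. For *Th*, the reads per read of *Tfap2b* were 0.632 and 0.774 in wildtype and 0.163 and 0.164 in Nrf1-CKO.

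Progenitor and photoreceptor precursor markers moved less. Of 10 progenitor markers 3 were called lower (median -0.12), and of 5 photoreceptor precursor markers 2 were called lower (median -0.31).

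The other genes of the same pathways were taken from 7 lists with 128 genes in the counts, of which 90 were tested. Of these, 22 were called lower and 15 higher. The shares over all tested genes were 8.04% lower and 12.8% higher, for comparison here and with the counts of each list below. The median log2 fold change of the 90 genes was -0.13, beside 0.00073 for all tested genes. The count of 15 is not firm, since it was 8 at an adjusted p of at most 0.05 and 9 without wildtype replicate 2.

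**Figure D4:**
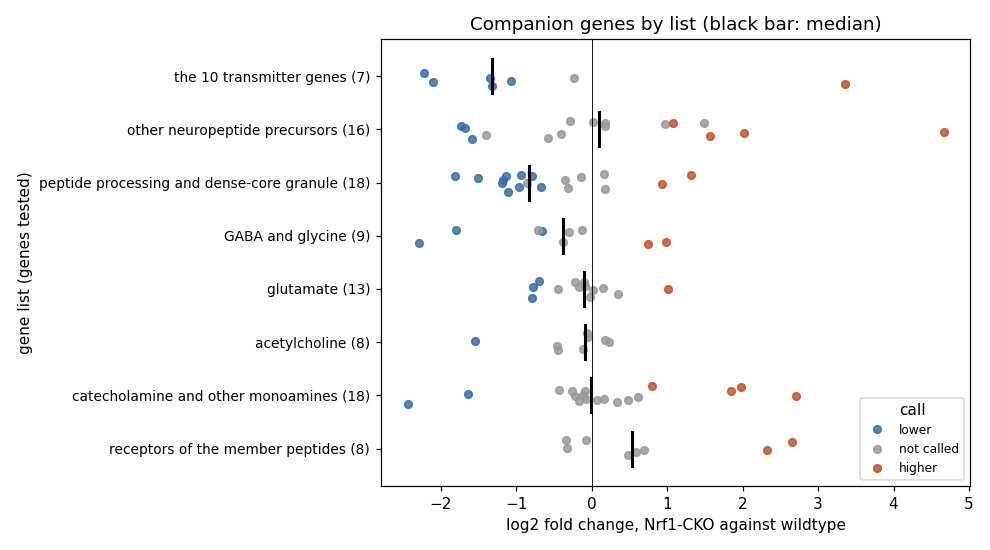
Log2 fold change of each tested gene in Nrf1-CKO against wildtype, by list, with calls in colour and the median as a black bar. The list of peptide processing and granule genes has a median of -0.83, the other lists lie between -0.38 and 0.54, and the 7 tested genes of the 10 are shown for comparison. The point at 4.66 is *Gcg*, whose wildtype libraries are at the floor, so that its size depends on the fit.

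The genes that process neuropeptides and form dense-core granules were mostly lower. Of 18 tested, 10 were called lower and 2 higher (median -0.83). *Scg3*, a secretogranin gene, had 5955 and 5496 reads in wildtype and 1973 and 1379 in Nrf1-CKO, a log2 fold change of -1.81 (SE 0.15, edgeR adjusted p = 0.000127). *Pcsk2*, a convertase that cuts precursors, was at -0.96, *Scg5*, which encodes its chaperone, at -0.93, *Rab3a*, a vesicle GTPase gene, at -1.19 and *Cadps*, which primes granules for release, at -0.80. *Cpe* and *Pam*, whose enzymes trim and amidate the peptides, were at -0.31 and -0.35 and did not reach 1.4-fold. *Scg2*, another granin gene, rose from 159 and 230 reads to 335 and 678 (log2 fold change 1.32, adjusted p = 0.0304 from edgeR), and *Rab27b* was called higher at 0.94.

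Among the other neuropeptide precursor genes, 39 were in the counts and only 16 had enough reads to test, of which 3 were called lower and 4 higher (median 0.10). *Sst*, the somatostatin gene, had the most reads of them in wildtype, and *Penk* in Nrf1-CKO. *Sst* had 1528 and 1428 reads in wildtype and 496 and 450 in Nrf1-CKO, that is 18.4 ± 1.28 against 5.70 ± 0.376 CPM (SD, n = 2). Its log2 difference was -1.69 (SE 0.13, edgeR adjusted p = 0.000104). *Pnoc*, of the nociceptin precursor, fell at -1.59 and *Ghrh* at -1.74, the latter from 31 and 25 reads. *Cck*, of cholecystokinin, rose at 1.07, from 105 and 86 to 197 and 215 reads. *Grp* and *Calca* were called higher at no more than 40 reads in any library, and *Gcg* had 3 and 0 reads in wildtype and 62 and 21 in Nrf1-CKO. *Penk* (-0.29) and *Pomc* (0.17) were not called.

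Of the genes for catecholamines and other monoamines, 18 were tested, 2 were called lower and 4 higher (median -0.0028). *Slc18a2*, the vesicular monoamine transporter gene, had 2736 and 2281 reads in wildtype and 917 and 734 in Nrf1-CKO, a log2 fold change of -1.64 (SE 0.13, edgeR adjusted p = 0.000104). It was lower along with *Th*, whereas *Ddc*, whose enzyme acts after tyrosine hydroxylase, had 113 and 80 against 149 and 153 reads and was not called (0.62, adjusted p = 0.212 from edgeR). *Gch1* and *Gchfr*, of the synthesis of the hydroxylase's cofactor and its control, were called higher at 1.98 and 1.84, with at most 59 reads. *Dbh*, which makes noradrenaline, and the dopamine transporter gene *Slc6a3* were too low to test, at no more than 20 reads. *Tph2*, of serotonin synthesis, was called lower from 21 and 27 to 3 and 6 reads. *Maob* rose at 0.80, and *Pitx3* rose at 2.70, from 116 and 202 to 1115 and 1057 reads. *Pitx3* is a gene of midbrain dopamine neurons but also of the lens, whose markers rose in the same libraries, and their part in its value was not tested. *Maoa* (-0.09) was not called.

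In the GABA and glycine list, 9 genes were tested, 3 were called lower and 2 higher (median -0.38). *Slc6a11*, a GABA transporter gene, was called lower at -1.80 and *Dlx1* at -0.66. *Slc6a9*, a glycine transporter gene, rose from 818 and 723 to 1408 and 1736 reads (0.99), and *Slc6a13* was called higher at 0.75. *Abat*, which degrades GABA, was at -0.30 and *Aldh5a1* at -0.13, and neither was called. *Slc32a1*, which loads GABA into vesicles, had 71 and 50 reads against 22 and 53 and was not called (-0.71).

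The glutamate list had 13 tested genes, 3 called lower and 1 higher (median -0.10). The uptake transporter genes *Slc1a3*, *Slc1a2* and *Slc1a6* fell at -0.78, -0.70 and -0.79. The remaining vesicular transporter genes were scarce, with 28 and 34 against 28 and 19 reads of *Slc17a7* (not called) and 33 and 38 against 61 and 88 of *Slc17a8* (1.02, edgeR adjusted p = 0.181, called higher). The general genes *Glul* (0.15) and *Slc38a2* (0.02) were not called.

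Of 8 tested genes of acetylcholine, 1 was called. *Slc10a4*, an orphan transporter gene of cholinergic and monoaminergic vesicles, fell from 347 and 330 to 133 and 105 reads (-1.55, adjusted p = 0.00265 from edgeR). *Slc5a7*, the choline transporter gene, had 159 and 213 reads in wildtype and 216 and 224 in Nrf1-CKO and was not called (0.18). The vesicular transporter gene *Slc18a3*, which lies within *Chat*, had at most 16 reads in any library. *Acly* (-0.46) and *Bche* (-0.12) were not called.

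Of the receptor genes for the peptides of *Adcyap1*, *Gal*, *Tac1*, *Npy* and *Cartpt*, 8 of 15 were tested, none was called lower and 2 were called higher (median 0.54). At an unadjusted p under 0.05, 2 were lower. *Tacr1*, the substance P receptor gene, rose from 136 and 72 reads to 755 and 570 (log2 fold change 2.65, SE 0.27, edgeR adjusted p = 0.000271), while *Tac1* fell. *Gpr160*, a proposed receptor for CART peptides, rose from 27 and 30 to 188 and 108 reads (2.32, adjusted p = 0.00661 from edgeR), in the same direction as *Cartpt*. Of the Nrf1-CKO libraries, the first had more *Gpr160*, whereas the second had more *Cartpt* (101 and 178 reads). The part of neighbouring tissues in the *Tacr1* and *Gpr160* values was not tested. *Adcyap1r1* and *Vipr2*, receptor genes for PACAP, were at -0.33 and -0.34 and not called. The 3 galanin receptor genes had at most 12 reads in any library.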

How the data were processed

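Total RNA of E13.5 retinas was sequenced in 2 wildtype and 2 Nrf1-CKO libraries. According to the study's methods and the submitters' processing notes, reads were aligned to mm10 with TopHat2 (2.7.2) and counted per gene with HTSeq. The annotation release is not given in the sources used here. The authors deposited whole-number read counts per gene, without normalization, and a second table of values on a log2 scale, whose normalization the methods do not name. DESeq and limma are also among the tools recorded for the submitters' processing, without versions. Header lines carry extra tabs, and the 4 names (Mut1, Mut2, Ctrl1, Ctrl2) were assigned to the 4 value columns in order.

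The 5 HTSeq summary rows, 74.0% to 75.0% of all entries, were kept out. They are mostly alignments that were not unique, so genes with close copies lose reads. Depth was 74577660 to 85933945 reads on genes. Intervals cover counting error only, and reads that are PCR copies are not independent molecules. Replicates differed by more than sampling noise (chi-square per gene 46.6 and 58.8). The labels do not say that libraries came from separate litters, so p-values measure the spread between 2 libraries per genotype.

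Genes were filtered with filterByExpr (minimum count 10), scaled with TMM and tested by quasi-likelihood (edgeR 4.0.16, R 4.3.3), with Benjamini-Hochberg adjustment over all 15762 genes. Cuffdiff, named in the methods, needs aligned reads and was not run. The script was tested on simulated data. Standard errors were derived from each F statistic. A gene was at the floor of a genotype when each of its 2 libraries had 3 reads or fewer.

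The members and lists were chosen with earlier results of these data known. Named from each list were up to 5 called genes per direction with the highest mean CPM and the 2 most abundant uncalled genes. *Slc17a7*, *Slc32a1*, *Slc5a7*, *Slc18a3*, *Ddc*, *Dbh*, *Slc6a3* and the galanin receptor genes were named after their values were seen. Gene coordinates and exon lengths come from GENCODE M21 (GRCm38), the same assembly as mm10, and promoters from RefSeq (GRCm38.p6), which held all 10 genes. Protein sequences were not used here, and some genes of the lists are not reported here by name. Alternatives used DESeq2 1.42.0 and limma 3.58.1, other scalings, filters and thresholds, the replicate number as a block, and each library left out in turn.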

Additional observations from a re-analysis of the deposited data

How the results depend on the processing

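The 5 decreases and the increase of *Cartpt* kept their direction under each alternative that tested them, and *Gad2* was called under none of its 16. With at least 10 reads required in every library, *Cartpt* was not tested, which left 0 genes of the 10 called higher. On the authors' log2 normalized values with limma, where differences are smaller, *Tac1* was at -0.35 and 4 of the 10 were called lower. There *Slc17a6* was at -1.52, *Th* at -1.18, *Gal* at -0.97 and *Adcyap1* at -0.78. Over all genes, 723 were called lower and 945 higher on these values. With glmTreat, 743 and 1188 were called. Leaving out each library gave 1071 to 1402 lower and 1703 to 1856 higher over all genes, and 5 lower and 1 higher among the 10. The 15 companion genes called higher became 8 at an adjusted p of at most 0.05 with or without a minimum fold, 9 with glmTreat, 5 on the normalized values, and 9 to 11 with each library left out, the lowest without wildtype replicate 2. The causes of these changes were not tested.

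The replicate numbers are shared between genotypes, but deviations of same-numbered libraries did not correlate (r = -0.0025 across genes), so they share only a number. With the replicate number as a block, 1256 genes were called lower and 1970 higher, and 5 and 1 of the 10 genes. With 2 libraries per genotype the spread is known only roughly. Genes under about 10 reads in all 4 libraries were too low to test, and a fold is uncertain where 1 genotype has so few reads.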
